A study of Homo sapiens with 15 samples.

Results

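The genes described here encode enzymes that build purine and pyrimidine nucleotides from small precursors. The set was chosen by name and comprised 10 genes, PPAT, GART, PFAS, PAICS, ADSL, ATIC, IMPDH1, IMPDH2, GMPS and CAD. Of these, 7 were named in the array's annotation and measured, out of 14812 genes tested. GART, PAICS and CAD were not named there and were not analysed here, so CAD, the single pyrimidine enzyme of the set, has no value and all 7 measured genes belong to purine synthesis. Each measured gene had 1 feature, the array's unit of measurement, and its level is given as the log2 signal of that feature.

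MV4-11, an established human acute myeloid leukaemia line with a KMT2A fusion and an activated FLT3, was exposed for 24 h to vehicle or to a compound. The 5 groups of 3 arrays received DMSO, OTX015 at 300 nM, DW71177 at 300 nM, DW71374 at 300 nM or RVX208 at 5 uM. OTX015 and RVX208 are inhibitors of the BET family of acetyl-lysine readers, OTX015 of both bromodomains and RVX208 mainly of the second, whereas DW71177 and DW71374 are known here only by code name. The groups share the line and the 24 h exposure, and nothing in the labels says that wells of a group were separate cultures. The p-values therefore reflect the variation among the arrays, possibly technical in origin. Arrays are bulk RNA measurements, in which fewer cells and less RNA per cell cannot be told apart.

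Purine synthesis assembles the ring step by step on activated ribose. PPAT catalyses the committed step, and GART and PFAS build up the chain and close the imidazole ring. PAICS adds to that ring, ADSL removes fumarate, and ATIC closes the purine ring to give inosine monophosphate. From there IMPDH1 or IMPDH2 and then GMPS lead to guanine nucleotides, while ADSL acts again on the way to adenine nucleotides. CAD opens the pyrimidine route. Dividing leukaemia cells need these nucleotides for DNA and RNA, and genes of both routes are textbook targets of the transcription factor MYC, whose own gene is lowered by BET inhibitors.

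Promoter windows from RefSeq (GRCh38.p14, 250 bases before to 50 after a start site) were given for 5 of the 7 measured genes, PPAT, PFAS, ATIC, IMPDH1 and GMPS. Those of PPAT, PFAS and ATIC are shown because they hold the E-box CACGTG or its variant CACGCG, which MYC and related factors are known to bind. Each is written 5′ to 3′ on the strand of the gene, with CACGTG or CACGCG on either strand in capitals. They lie at chr4:56435566-56435865 (minus strand), chr17:8249039-8249338 (plus strand) and chr2:215311809-215312108 (plus strand).
PPAT: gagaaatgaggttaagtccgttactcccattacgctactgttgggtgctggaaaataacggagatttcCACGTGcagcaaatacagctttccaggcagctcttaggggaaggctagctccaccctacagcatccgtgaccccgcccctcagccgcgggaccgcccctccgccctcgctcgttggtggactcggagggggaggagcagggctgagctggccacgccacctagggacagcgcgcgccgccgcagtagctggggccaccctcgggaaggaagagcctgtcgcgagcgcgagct
PFAS: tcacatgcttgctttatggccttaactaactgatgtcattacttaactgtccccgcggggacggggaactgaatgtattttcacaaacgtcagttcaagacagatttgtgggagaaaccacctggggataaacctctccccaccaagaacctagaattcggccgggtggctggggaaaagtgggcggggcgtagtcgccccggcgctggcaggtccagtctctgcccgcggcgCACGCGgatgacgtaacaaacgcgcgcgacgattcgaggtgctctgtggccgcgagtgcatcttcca
ATIC: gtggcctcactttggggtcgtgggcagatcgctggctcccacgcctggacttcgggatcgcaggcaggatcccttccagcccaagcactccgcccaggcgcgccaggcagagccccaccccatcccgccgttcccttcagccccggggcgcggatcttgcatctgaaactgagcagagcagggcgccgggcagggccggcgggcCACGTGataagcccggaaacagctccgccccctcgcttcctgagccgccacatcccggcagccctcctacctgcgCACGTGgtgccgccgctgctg

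CACGTG began at position -182 from the start site in PPAT and at -46 and 30 in ATIC. CACGCG began at -17 in PFAS. CACGTG occurred in 2 of the 5 windows and in 7.26% of all 35116 RefSeq windows of that length, and CACGCG in 1 of the 5 and in 11.4% of all. Both strands were searched. The GC box GGGCGG was present in all 5 windows, against 45% of all. CCAAT occurred in 0 of the 5 and in 34.6% of all, and the palindromic NRF1 motif in 0 and 1.24%. Matches to different motifs did not overlap in these windows. The IMPDH1 and GMPS windows held neither CACGTG nor CACGCG. A match is a description of letters and not a measured binding site. The PPAT window overlaps 1 of the 3 PAICS windows by 236 bases, and the 2 genes run in opposite directions from start sites 137 bases apart, so the PPAT CACGTG is also part of that PAICS window.

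**Figure D1:**
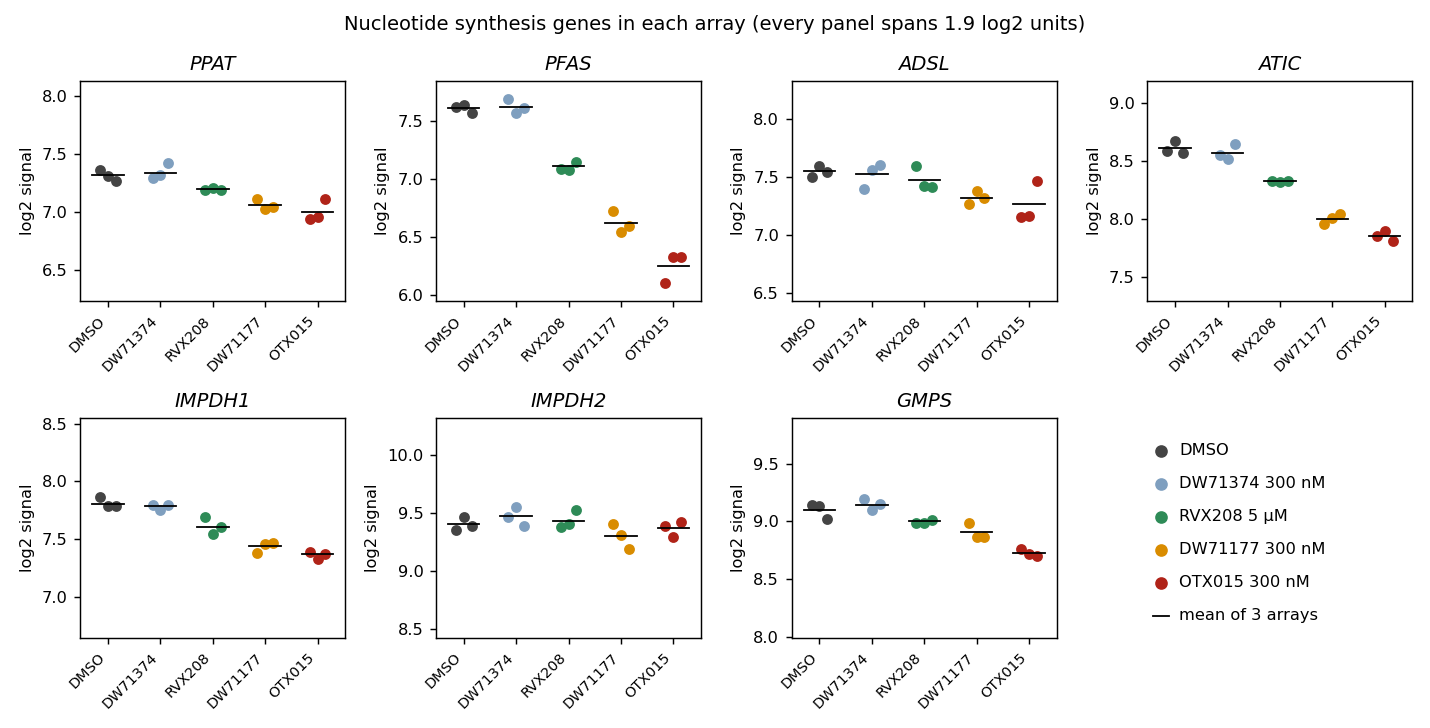
Log2 signal (vertical axis) of the 7 measured genes in each of the 15 arrays, by group. Points are single arrays, lines are means of 3, and every panel spans the same range of log2 units. PFAS separates the groups most widely, from 7.57 to 7.64 in DMSO down to 6.10 to 6.33 with OTX015, while the IMPDH2 groups overlap.

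The comparison of OTX015 with DMSO asked how the genes responded to a pan-BET inhibitor at 300 nM. Of the 7 measured genes 6 fell, where 14.5% of all genes tested were called lower, and 0 rose, where 11.2% were called higher. The median difference of the 7 was -0.37 on the log2 scale, beside 0.00 for all genes tested. All 3 OTX015 arrays lay below all 3 DMSO arrays for the same 6 genes, an arrangement found in 19.5% of all genes. Calls rest on limma's moderated test with Benjamini-Hochberg adjustment over all genes, at an adjusted p under 0.05.

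PFAS, which encodes the large glutamine-using synthase in the middle of the route, fell furthest of the 7 with OTX015. Its log2 signal was 7.62, 7.64 and 7.57 in DMSO and 6.10, 6.33 and 6.33 with OTX015. The groups were far apart relative to their spread, and the signal was 2.56-fold lower (log2 difference -1.36 ± 0.073, standard error, with a 95% confidence interval of -1.51 to -1.20 for n = 3 and 3, limma adjusted p = 2e-08). ATIC, which encodes the enzyme of the last steps to inosine monophosphate, read 8.59, 8.67 and 8.57 in DMSO and 7.85, 7.90 and 7.81 with OTX015. It was 1.69-fold lower (-0.76 ± 0.055, interval -0.88 to -0.64, n = 3 and 3, limma adjusted p = 2.7e-07).

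PPAT and ADSL, the other measured steps of the route to inosine monophosphate, had smaller differences with OTX015. PPAT, the entry enzyme, read 7.36, 7.31 and 7.27 in DMSO and 6.94, 6.96 and 7.11 with OTX015, which is 1.24-fold lower (-0.31 ± 0.060, interval -0.44 to -0.18, n = 3 and 3, limma adjusted p = 0.0013). ADSL, the lyase used in both the common route and the adenine branch, read 7.5, 7.59 and 7.54 in DMSO. With OTX015 it read 7.15, 7.16 and 7.46, with 1 array close to the controls, and was 1.22-fold lower (-0.29 ± 0.088, interval -0.48 to -0.10, n = 3 and 3, limma adjusted p = 0.025). The ADSL call was lost without DMSO replicate 2 (limma adjusted p = 0.084), DMSO replicate 3 (0.06), OTX015 replicate 1 (0.11) or OTX015 replicate 2 (0.098). It was also lost when every feature of the table was tested (0.057) or the 6 arrays of the 2 groups were fitted alone (0.076).

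The guanine branch was split with OTX015. IMPDH1, 1 of 2 isoenzymes for its rate-limiting step, read 7.87, 7.79 and 7.79 in DMSO and 7.39, 7.33 and 7.37 with OTX015, a 1.36-fold fall (-0.45 ± 0.056, interval -0.57 to -0.33, n = 3 and 3, limma adjusted p = 3.3e-05). GMPS, which completes guanosine monophosphate, read 9.14, 9.13 and 9.02 in DMSO and 8.76, 8.72 and 8.70 with OTX015, a 1.29-fold fall (-0.37 ± 0.057, interval -0.49 to -0.25, n = 3 and 3, limma adjusted p = 0.00019). IMPDH2, the isoenzyme known to dominate in proliferating cells, read 9.35, 9.46 and 9.39 in DMSO and 9.39, 9.29 and 9.42 with OTX015. Its groups overlapped, and it differed by -0.03 ± 0.071 (interval -0.19 to 0.12, n = 3 and 3, limma adjusted p = 0.81).

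**Figure D2:**
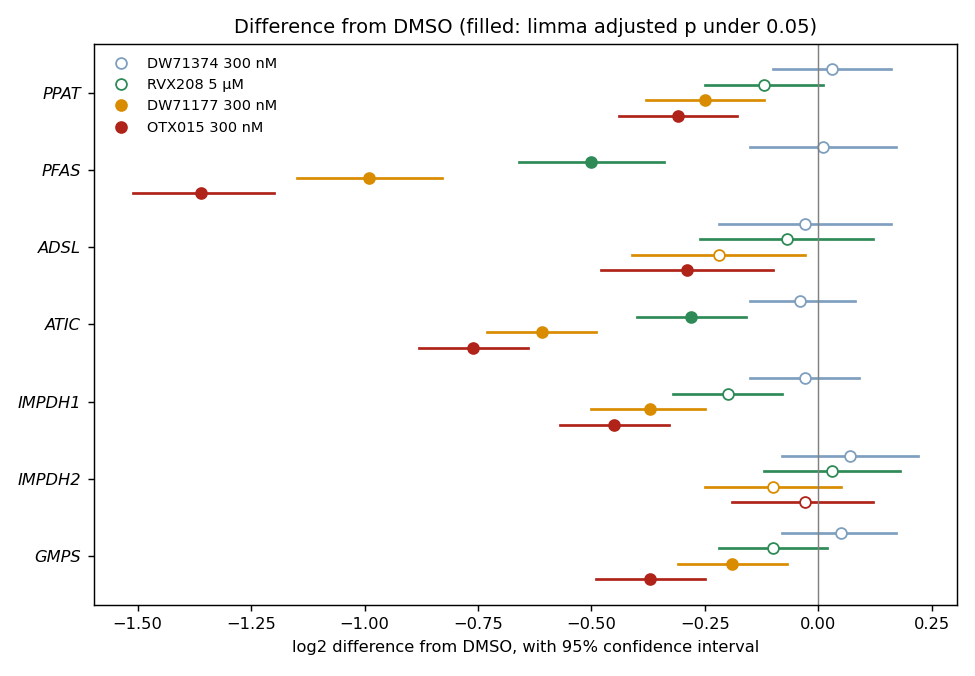
Log2 difference of each compound from DMSO (horizontal axis) for the 7 genes, with 95% confidence intervals from the limma fit; filled points passed at an adjusted p under 0.05. With OTX015 the differences run from -1.36 for PFAS to -0.03 for IMPDH2, and every DW71374 interval includes 0.

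DW71177 at 300 nM, set against the same DMSO arrays, lowered 5 of the 7 genes, where 9.88% of all genes were called lower, and raised 0, where 9.95% were called higher. The median difference was -0.25, beside -0.01 for all genes. All 3 arrays lay below DMSO for 6 genes, against 16.2% of all genes. PFAS read 6.72, 6.54 and 6.59, a 1.99-fold fall (-0.99 ± 0.073, interval -1.15 to -0.83, n = 3 and 3, limma adjusted p = 6.8e-07). ATIC read 7.96, 8.01 and 8.04, a 1.52-fold fall (-0.61 ± 0.055, interval -0.73 to -0.49, n = 3 and 3, limma adjusted p = 4e-06). Both genes stood well clear of the controls.

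IMPDH1 read 7.38, 7.46 and 7.47 with DW71177, a 1.30-fold fall (-0.37 ± 0.056, limma adjusted p = 0.00025), and PPAT read 7.11, 7.03 and 7.04, a 1.19-fold fall (-0.25 ± 0.060, limma adjusted p = 0.0076). GMPS read 8.99, 8.87 and 8.87, just under the lowest control, a 1.14-fold fall (-0.19 ± 0.057, limma adjusted p = 0.031). The GMPS call was lost without DMSO replicate 1 (limma adjusted p = 0.11), DMSO replicate 2 (0.10), DW71177 replicate 2 (0.098) or DW71177 replicate 3 (0.10), after quantile normalization (0.053), with every feature tested (0.097) and in a fit of 6 arrays (0.14). ADSL read 7.26, 7.38 and 7.32, below all 3 controls, and did not pass (-0.22 ± 0.088, limma adjusted p = 0.10). It passed without OTX015 replicate 3 (0.044), among brighter genes (0.037) and with a mean-variance trend (0.043). IMPDH2 read 9.40, 9.31 and 9.19, overlapping the controls (-0.10 ± 0.071, interval -0.25 to 0.05, limma adjusted p = 0.41).

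RVX208 was used at 5 uM, another dose than the other compounds, and is therefore set beside them without a test between them. Against DMSO 2 of the 7 genes fell, PFAS and ATIC, where 3.11% of all genes were called lower, and 0 rose, where 3.41% were called higher. The median difference was -0.12, beside -0.01 for all genes. PFAS read 7.09, 7.08 and 7.15, a 1.42-fold fall (-0.50 ± 0.073, interval -0.66 to -0.34, n = 3 and 3, limma adjusted p = 0.001). ATIC read 8.33, 8.32 and 8.33, a 1.21-fold fall (-0.28 ± 0.055, interval -0.40 to -0.16, n = 3 and 3, limma adjusted p = 0.0075).

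IMPDH1 read 7.69, 7.55 and 7.61 with RVX208, under all controls, and fell just short of the threshold (-0.20 ± 0.056, interval -0.32 to -0.08, n = 3 and 3, limma adjusted p = 0.0503). It passed among brighter genes (limma adjusted p = 0.0098), with a mean-variance trend (0.011) and with array weights (0.04). PPAT read 7.19, 7.21 and 7.19 and GMPS 8.99, 8.99 and 9.01. Both also lay under all 3 controls without passing, at -0.12 (interval -0.25 to 0.01, limma adjusted p = 0.31) and -0.10 (interval -0.22 to 0.02, limma adjusted p = 0.37). In all, 5 of the 7 genes had 3 RVX208 arrays below the DMSO arrays, an arrangement of 13.3% of all genes. ADSL at 7.59, 7.42 and 7.41 and IMPDH2 at 9.38, 9.40 and 9.52 overlapped the controls, with differences of -0.07 (interval -0.26 to 0.12, limma adjusted p = 0.72) and 0.03 (interval -0.12 to 0.18, limma adjusted p = 0.88).

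With DW71374 at 300 nM limma called 0 of the 7 genes and 0.0% of all genes against DMSO. At an unadjusted p under 0.05 there were 0 of the 7 and 686 of 14812. PFAS read 7.69, 7.57 and 7.61 and differed by 0.01 (interval -0.15 to 0.17, n = 3 and 3, limma adjusted p = 1.0). ATIC read 8.55, 8.52 and 8.65 and differed by -0.04 (interval -0.15 to 0.08, n = 3 and 3, limma adjusted p = 0.99). PPAT differed by 0.03 (interval -0.10 to 0.16), ADSL by -0.03 (-0.22 to 0.16), IMPDH1 by -0.03 (-0.15 to 0.09), IMPDH2 by 0.07 (-0.08 to 0.22) and GMPS by 0.05 (-0.08 to 0.17). All 7 genes overlapped the DMSO arrays, and the 7 intervals together reach from -0.22 to 0.22 on the log2 scale. Of all genes, 5.98% had all 3 arrays below and 4.69% all 3 above the DMSO arrays.

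MYC, the factor that background knowledge ties to these genes, read between 9.29 and 9.35 in DMSO and between 9.25 and 9.33 with DW71374. It read 8.97 to 9.04 with RVX208, 8.08 to 8.22 with DW71177 and 7.87 to 7.91 with OTX015. The PFAS and ATIC group means stood in that same order, apart from DMSO and DW71374, whose arrays overlapped for MYC, PFAS and ATIC. The PPAT, ADSL, IMPDH1 and GMPS means were also successively lower with RVX208, DW71177 and OTX015. The IMPDH2 means were not, at 9.43, 9.30 and 9.37. Between DW71177 and OTX015 the arrays of PPAT, ADSL and IMPDH1 overlapped, and neither their differences nor that of GMPS passed. How many of all genes share this order of means was not counted, and RVX208 stands in it at another dose than the other compounds. The HEXIM1 means were successively higher with RVX208, DW71177 and OTX015, at 7.06, 7.43 and 7.97. In size, MYC differed from DMSO by -0.32 with RVX208 and by -1.42 with OTX015. The same differences were -0.5 and -1.36 for PFAS and -0.28 and -0.76 for ATIC. Whether MYC had a part in the differences of the 7 genes was not tested. The MYC call between DW71177 and OTX015 (0.26, limma adjusted p = 0.037) was lost when any 1 of 13 single arrays was left out (0.0504 to 0.11).

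**Figure D3:**
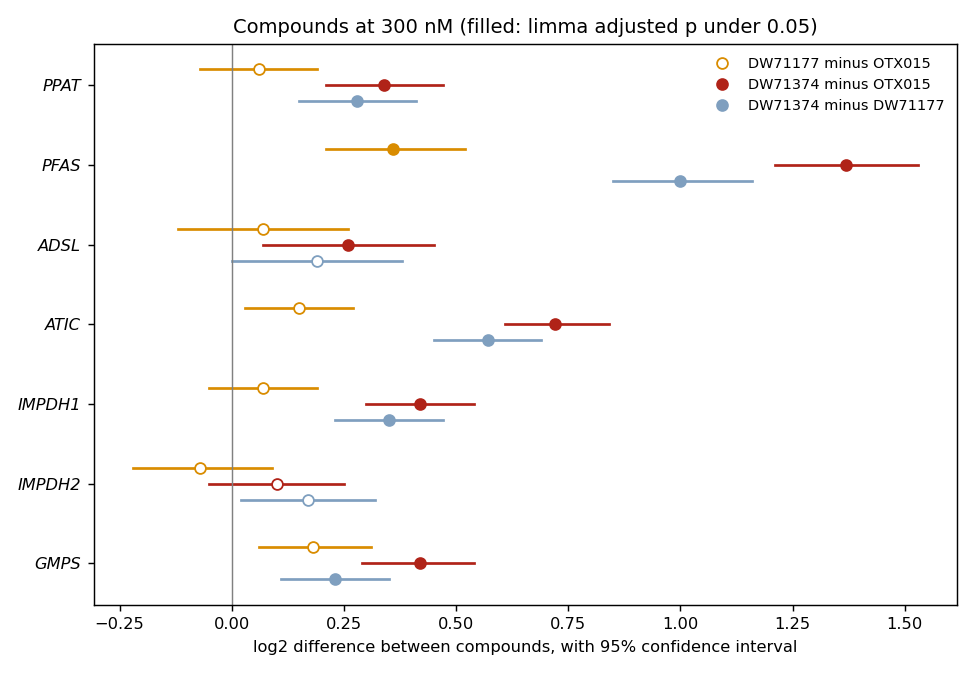
Log2 difference between compounds used at 300 nM (horizontal axis) for the 7 genes, with 95% confidence intervals; filled points passed at an adjusted p under 0.05 in limma. The DW71177 and OTX015 difference passed for PFAS alone, at 0.36, and DW71374 lay 1.37 above OTX015 for that gene.

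The 3 compounds used at the same dose and time formed 3 pairs, tested for all genes in the same fit. Between DW71177 and OTX015, 1 of the 7 genes differed, PFAS, which was 1.29-fold higher with DW71177 (0.36 ± 0.073, interval 0.21 to 0.52, n = 3 and 3, limma adjusted p = 0.033). All 3 of its DW71177 arrays lay above all 3 OTX015 arrays. Of all genes, 1.07% were called higher in this pair. The PFAS call was lost without DW71177 replicate 1 (difference 0.31, limma adjusted p = 0.098), DW71177 replicate 2 (0.40, 0.053), DW71177 replicate 3 (0.38, 0.081), OTX015 replicate 1 (0.28, 0.10) or RVX208 replicate 1 (0.36, 0.051). Quantile normalization (limma adjusted p = 0.068), testing every feature (0.099) and fitting 6 arrays (0.35) ended it too.

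The other 6 genes did not pass between DW71177 and OTX015, which does not show that the compounds acted alike on them. GMPS was higher with DW71177 by 0.18 (interval 0.06 to 0.31, limma adjusted p = 0.14) and ATIC by 0.15 (0.03 to 0.27, limma adjusted p = 0.22), in both cases with no overlap between arrays. With PFAS, 3 of the 7 genes had all DW71177 arrays above all OTX015 arrays, an arrangement of 10.5% of all genes. GMPS passed among brighter genes (limma adjusted p = 0.034) and with a mean-variance trend (0.017). The intervals for the rest included 0, at -0.07 to 0.19 for PPAT, -0.12 to 0.26 for ADSL, -0.05 to 0.19 for IMPDH1 and -0.22 to 0.09 for IMPDH2.

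DW71374 differed from both other compounds at 300 nM. It lay above OTX015 for 6 of the 7 genes, where 14.0% of all genes were called higher, by 1.37 for PFAS (interval 1.21 to 1.53, limma adjusted p = 1.7e-08) and 0.72 for ATIC (0.61 to 0.84, limma adjusted p = 3.7e-07). GMPS and IMPDH1 were each higher by 0.42, PPAT by 0.34 and ADSL by 0.26. All DW71374 arrays lay above all OTX015 arrays for 5 of the 7 genes, against 19.2% of all genes. The ADSL call (limma adjusted p = 0.044), from arrays that overlapped, was lost without any single DMSO array, DW71177 replicate 1 or 3, DW71374 replicate 2 or 3, OTX015 replicate 1 or 2, or RVX208 replicate 2 or 3. Across those 11 omissions the difference was 0.21 to 0.26 and the limma adjusted p 0.051 to 0.17. Quantile normalization, testing every feature and a fit of 6 arrays ended it as well. IMPDH2 differed by 0.10 (interval -0.05 to 0.25, limma adjusted p = 0.36).

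Against DW71177, DW71374 was higher for 5 of the 7 genes, where 9.51% of all genes were called higher. The arrays did not overlap for 6 of the 7, against 15.4% of all genes. The differences were 1.0 for PFAS (interval 0.85 to 1.16), 0.57 for ATIC (0.45 to 0.69), 0.35 for IMPDH1 (0.23 to 0.47), 0.28 for PPAT (0.15 to 0.41) and 0.23 for GMPS (0.11 to 0.35). The GMPS call was lost in a fit of 6 arrays (limma adjusted p = 0.069). ADSL at 0.19 (interval 0.00 to 0.38, limma adjusted p = 0.17) and IMPDH2 at 0.17 (0.02 to 0.32, limma adjusted p = 0.13) did not pass. IMPDH2 passed among brighter genes (0.045) and with a mean-variance trend (0.03). These pairs and the comparisons with DMSO share arrays, so their counts are not separate evidence.

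**Figure D4:**
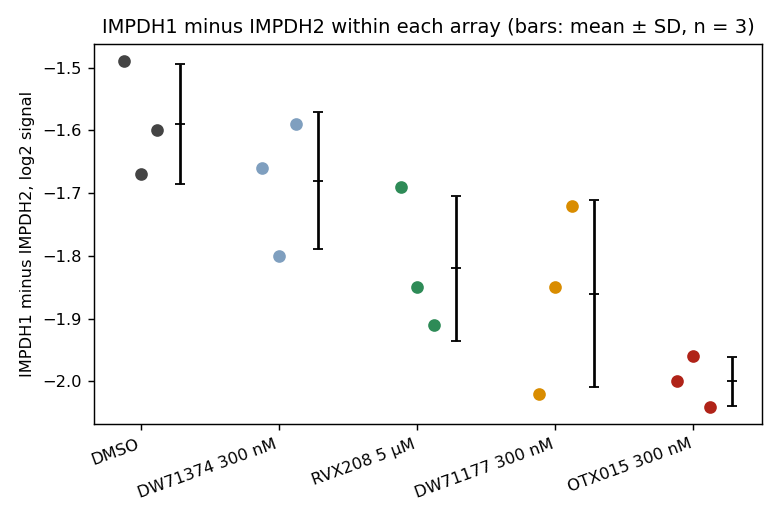
Log2 signal of IMPDH1 minus that of IMPDH2 within each array (vertical axis), by group, with the mean and SD of 3 arrays beside the points. The gap is -1.67 to -1.49 in DMSO and -2.04 to -1.96 with OTX015.

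The 2 isoenzyme genes of the inosine monophosphate dehydrogenase step were also set against each other within arrays. Within each array, the log2 signal of IMPDH1 minus that of IMPDH2 was -1.49, -1.67 and -1.60 in DMSO and -2.00, -1.96 and -2.04 with OTX015. The gap changed by -0.41 with OTX015, and by -0.28 with DW71177 and -0.23 with RVX208, and the 3 arrays of each of these groups lay below all DMSO arrays. An exact two-sided permutation test gave p = 0.1 for each of the 3, the smallest value that 3 arrays against 3 allow, so no difference in the gap could pass a threshold of 0.05. The SD of the gap was 0.095 in DMSO and 0.116 with RVX208. With DW71374 the gap changed by -0.10 (exact permutation p = 0.5) and overlapped the controls. This gap was examined after the values had been seen. It is a description and does not give the relative amount of the 2 transcripts, since different probes have different brightness. The proteins are close paralogs, and cross-hybridisation between their probes was not tested.

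Among themselves, the 6 genes other than IMPDH2 varied together over the 15 arrays. Their 15 pairs had a Pearson correlation of 0.65 to 0.98, highest between PFAS and ATIC and lowest between ADSL and GMPS. The 6 pairs that involve IMPDH2 reached 0.39 to 0.51. These values describe the arrays, which share the treatment groups, and carry no test.

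The protein-coding genes outside the set whose 15 values followed the mean of the 7 standardised profiles most closely were ALYREF, ZNF532, IGF1, MTHFD1L, TOMM40, PRDX2, CDK6 and MRTO4. Their Pearson correlations were 0.983 to 0.985. Functions are given below for some of them only, and whether they share a function was not tested. ALYREF encodes an mRNA export adaptor, TOMM40 the mitochondrial import pore, MRTO4 a ribosome assembly factor and MTHFD1L a mitochondrial enzyme of folate metabolism that releases formate, the one-carbon unit used in purine synthesis. The closest single profile was that of NETO2 for PFAS (0.994), EBP for ATIC (0.993), GLIPR1 for IMPDH1 (0.98), METTL21A for GMPS (0.975), ZNF850 for PPAT (0.974), MALSU1 for ADSL (0.914) and NEU4 for IMPDH2 (0.809). IMPDH2 had the least close neighbour of the 7. These are descriptions over the same 15 arrays.

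**Figure D5:**
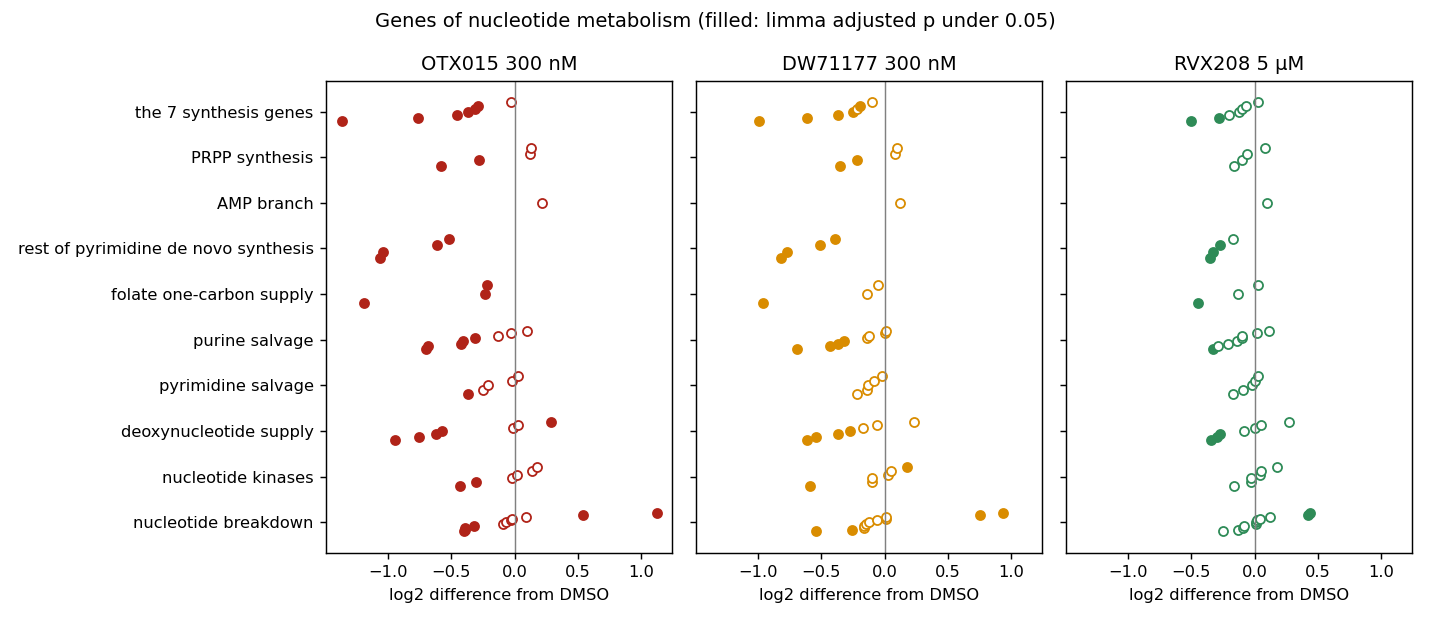
Log2 difference from DMSO (horizontal axis) of the 7 synthesis genes and of 49 other genes of nucleotide metabolism, in functional lists (vertical axis), for OTX015, DW71177 and RVX208. Each point is a gene, and filled points passed at an adjusted p under 0.05 in limma. With OTX015 all 4 measured genes of the remaining pyrimidine route are filled and lie at -0.52 or lower. Of all genes, 14.5% were called lower with OTX015.

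Of 73 further genes of nucleotide metabolism listed by function, 49 were measured. With OTX015 25 of the 49 fell and 3 rose, beside the 14.5% and 11.2% of all genes, with a median of -0.23. With DW71177 18 fell and 3 rose, beside 9.88% and 9.95% of all genes (median -0.14). With RVX208 8 fell and 2 rose, beside 3.11% and 3.41% (median -0.08), and with DW71374 0 were called (median -0.01). The RVX208 total of 10 calls shrank on omission of 1 DMSO or RVX208 array, to 4, 4 and 5 without DMSO replicates 1, 2 and 3 and 4, 4 and 3 without RVX208 replicates 1, 2 and 3. It was also 3 with every feature tested and 5 in a fit of 6 arrays.

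The rest of the pyrimidine route stood lower with OTX015, DW71177 and RVX208. All 4 measured genes fell with OTX015 and with DW71177, and 3 fell with RVX208, beside 14.5%, 9.88% and 3.11% of all genes. The medians of the 4 were -0.82, -0.64 and -0.30, beside 0.00, -0.01 and -0.01 for all genes tested. DHODH, the mitochondrial dehydrogenase of the route, fell 2.08-fold with OTX015 (-1.06 ± 0.074, limma adjusted p = 2e-07), 1.71-fold with DW71177 (-0.77) and 1.26-fold with RVX208 (-0.33). CTPS2, a cytidine triphosphate synthase, fell 2.05-fold, 1.77-fold and 1.27-fold. UMPS, which makes uridine monophosphate, fell 1.53-fold and 1.42-fold with OTX015 and DW71177 and differed by -0.17 with RVX208 (limma adjusted p = 0.26). The RVX208 calls lost significance without DMSO replicate 2 or RVX208 replicate 3 for DHODH (limma adjusted p = 0.071 each). For CTPS2 they did so without any single DMSO or RVX208 array (0.0539 to 0.11).

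Suppliers of precursors also fell in part. Of 4 genes listed under phosphoribosyl pyrophosphate, the activated ribose that PPAT uses, 2 fell with OTX015, 2 with DW71177 and 0 with RVX208. Of all genes 14.5%, 9.88% and 3.11% were called lower with these compounds. PRPS1 fell by 1.5-fold and 1.27-fold with OTX015 and DW71177, and PRPS2 by 1.21-fold and 1.17-fold. PRPSAP1 and PRPSAP2, named to complete the list, differed by 0.13 and 0.12 with OTX015 and did not pass with any compound. With DW71177 the PRPS1 call was lost without DMSO replicate 1 or 2 or DW71177 replicate 1 or 2 (limma adjusted p = 0.061 to 0.091). The PRPS2 call was lost without any single DMSO array or DW71177 replicate 1 or 2 (0.058 to 0.12). Of 9 folate one-carbon genes listed 3 were measured. With OTX015 3 fell, with DW71177 1 and with RVX208 1, beside the same shares of all genes. MTHFD1L fell 2.28-fold with OTX015 (-1.19 ± 0.070, limma adjusted p = 4e-08), 1.94-fold with DW71177 (-0.96) and 1.37-fold with RVX208 (-0.45, limma adjusted p = 0.0016). The serine hydroxymethyltransferase genes SHMT1 and SHMT2 fell 1.17-fold and 1.16-fold with OTX015 and did not pass with DW71177 or RVX208. The SHMT1 call was lost without DMSO replicate 1 or 3 or OTX015 replicate 1 or 2 (limma adjusted p = 0.08 to 0.17), after quantile normalization, with every feature tested and in a fit of 6 arrays. In the adenine branch ADSS1, the 1 gene measured and named here because it was the only one, differed by 0.22 with OTX015 (limma adjusted p = 0.067).

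Salvage genes recycle bases and nucleosides. Of 8 purine salvage genes 5 fell with OTX015, 4 with DW71177 and 1 with RVX208, beside 14.5%, 9.88% and 3.11% of all genes. PNP, purine nucleoside phosphorylase, fell 1.62-fold, 1.61-fold and 1.25-fold with these compounds, the last call being lost without DMSO replicate 2 or 3 or any single RVX208 array (limma adjusted p = 0.056 to 0.082). APRT, which salvages adenine, fell 1.60-fold with OTX015 and 1.35-fold with DW71177, and MTAP, which frees adenine from methylthioadenosine, 1.34-fold and 1.30-fold. DCK, deoxycytidine kinase, was counted in this list and not under pyrimidine salvage, and is named for this placing alone. It fell with OTX015 (-0.41, limma adjusted p = 7.2e-05). Of 7 pyrimidine salvage genes listed 5 were measured. Of these the uridine-cytidine kinase gene UCK2 alone fell with OTX015, by 1.30-fold, and 0 did with DW71177 or RVX208. A count of 1 in 5 is near the 14.5% of all genes called lower with OTX015, and is no result about this list.

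Deoxynucleotide supply fell in 4 of 7 genes with OTX015 and with DW71177 and in 3 with RVX208, beside the same 14.5%, 9.88% and 3.11% of all genes. DTYMK, thymidylate kinase, fell 1.91-fold with OTX015 (-0.94 ± 0.085, limma adjusted p = 1.7e-06), 1.53-fold with DW71177 and 1.26-fold with RVX208. RRM1, the large subunit of ribonucleotide reductase, fell 1.68-fold, 1.45-fold and 1.23-fold, and TYMS, thymidylate synthase, fell 1.54-fold with OTX015 and 1.21-fold with DW71177. With RVX208 the DTYMK call was lost without DMSO replicate 1 or 3 or any single RVX208 array (limma adjusted p = 0.073 to 0.13), with every feature tested or in a fit of 6 arrays, and the RRM1 call without RVX208 replicate 3 (0.0544). The small subunits did not follow RRM1. RRM2 differed by -0.01 with OTX015 (interval -0.13 to 0.11), and RRM2B, the alternative subunit induced by p53, rose 1.22-fold (0.29 ± 0.083, limma adjusted p = 0.019). RRM2 and RRM2B were singled out after their values were seen.

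Of 14 nucleotide kinase genes listed 6 were measured. Of these 2 fell with OTX015, beside 14.5% of all genes, NME4 by 1.35-fold and NME6 by 1.23-fold. The NME6 call was lost without DMSO replicate 3, OTX015 replicate 1 or OTX015 replicate 3 (limma adjusted p = 0.0515 to 0.11). With DW71177 1 of the 6 fell, NME4 by 1.51-fold, and 1 rose, AK3 by 1.14-fold, named because it was the only one that rose. These counts are near the 9.88% and 9.95% of all genes and are no result about this list. Of 18 breakdown genes listed 11 were measured. With OTX015 4 fell and 2 rose, beside 14.5% and 11.2% of all genes, so that the number that rose is near the background. With DW71177 2 fell and 2 rose, beside 9.88% and 9.95%, again near the background. With RVX208 0 fell and 2 rose, beside 3.11% and 3.41%. DPYD, which starts pyrimidine breakdown, rose 2.17-fold with OTX015 (1.12 ± 0.10, limma adjusted p = 1.6e-06), 1.91-fold with DW71177 (0.93) and 1.34-fold with RVX208 (0.42).

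GMPR, which converts guanosine monophosphate back to inosine monophosphate, rose 1.45-fold with OTX015 (0.54, limma adjusted p = 0.0012), 1.68-fold with DW71177 (0.75) and 1.35-fold with RVX208 (0.44). It was dim, with group means of 4.98, 5.19 and 4.87 and a DMSO mean of 4.44, and no background level was given against which to read its fold. With DW71374 the GMPR mean was 4.83, all 3 arrays lay above DMSO and the difference of 0.39 (interval 0.17 to 0.61), close in size to that with RVX208, did not pass (limma adjusted p = 0.89, unadjusted p = 0.0021). NUDT1, which clears oxidised nucleotides, fell 1.32-fold with OTX015 and differed by 0.01 with DW71177 (limma adjusted p = 0.95). With RVX208 the DPYD call was lost without DMSO replicate 1 or 3 or RVX208 replicate 1 or 2 (limma adjusted p = 0.066 to 0.095), and the GMPR call without DMSO replicate 1 or 2 or any single RVX208 array (0.0525 to 0.093).

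In the table as a whole, the median log2 signal of an array was 3.72 to 3.79, and arrays of a group had correlations of 0.992 to 0.995 over genes. Of 10 markers of myeloid leukaemia cells 6 were measured. FLT3, CD68 and LYZ had means of 9.80, 10.2 and 10.5, SPI1 of 7.6, CSF1R of 6.43 and MPO of 4.33. Their summed log2 signal was 50.04 to 50.26 in DMSO, 47.2 to 47.5 with OTX015 and 47.6 to 47.8 with DW71177. It was 48.7 to 48.8 with RVX208 and 50.2 to 50.4 with DW71374, and its part in the differences above was not tested. A sum, here and for the lists below, does not show which of its markers differed. Of 8 lymphoid markers 2 were measured, NKG7 at a mean of 6.91 and CD2 at 3.87, with sums of 11.44 to 11.53 in DMSO, 10.01 to 10.31 with OTX015, 10.18 to 10.44 with DW71177, 10.62 to 10.77 with RVX208 and 11.18 to 11.36 with DW71374. Of 7 erythroid and megakaryocytic markers 2 were measured, PF4 at 5.72 and GP9 at 4.55. Their sum was 10.4 to 11.0 in DMSO, 10.07 to 10.13 with OTX015, 9.93 to 10.2 with DW71177, 10.03 to 10.52 with RVX208 and 9.92 to 10.56 with DW71374. Of 8 epithelial and stromal markers 5 were measured, from DCN at 1.73 to the keratin gene KRT18 at 7.73. Their sums overlapped between all groups, at 21.47 to 21.7 in DMSO and 20.87 to 22.27 with the compounds. The part of these lists in the differences was not tested either.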

How the data were processed

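Transcript levels were measured by microarray (Affymetrix, whole transcript). The values deposited by the authors are on a log2 scale, inferred from their range, and nearly equal medians and upper quartiles in all 15 arrays show that they had been normalized between arrays. For the method, background correction, software and build nothing was stated in the labels. Such normalization removes any change shared by all genes, so differences are relative to the array as a whole.

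Of 44629 features, 15835 named 1 gene, and the feature of highest mean over 15 arrays stood for each of 14812 genes. Group means were fitted with limma 3.58.1 in R 4.3.3 (lmFit, eBayes) to all 15 arrays with 10 residual degrees of freedom, with two-sided p-values and Benjamini-Hochberg adjustment over all genes. The procedure was tested on simulated data. No level filter was applied. "Brighter genes" have a mean above 5.

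The genes and lists were chosen with earlier results of these data known. Named were every measured member, up to 3 called genes per list with the largest OTX015 difference, MYC and HEXIM1, and the closest profiles. HEXIM1, known to rise with BET inhibition, had log2 differences from DMSO of 1.65 (OTX015), 1.11 (DW71177), 0.74 (RVX208) and 0.02 (DW71374). Alternatives covered normalization, feature choice, filtering, variance model, arrays fitted, weights, replicate number and single arrays. Arrays give no counting depth, and their number limits the precision.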

Additional observations from a re-analysis of the deposited data

How the results depend on the processing

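Across 23 alternatives, PFAS, ATIC, IMPDH1 and PPAT kept their falls with OTX015 and DW71177, as did GMPS with OTX015 and PFAS and ATIC with RVX208. DW71374 against DMSO gave 0 calls among the 7 genes in each. Of 4662 results of single named genes under an alternative, 145 lost and 30 gained a call and 0 reversed. Between DW71177 and OTX015, where 1 of the 7 genes was called, the count was 0 with quantile normalization, with all features tested and in a fit of 6 arrays, and 2 among brighter genes and with a mean-variance trend and robust fitting. The 49 other genes gave 3 calls in that pair, and 1 with quantile normalization, 9 among brighter genes, 1 with all features tested, 6 with the trend and 0 from 6 arrays. With RVX208 these 49 gave 10 calls, and 3 with all features tested and 5 from 6 arrays. Testing all features ended the calls of CTPS2, PNP, DPYD and GMPR with RVX208, NME6 with OTX015 and PRPS2 with DW71177. The fit of 6 arrays ended those of DHODH and DPYD with RVX208, NME6 with OTX015 and PRPS1 and PRPS2 with DW71177. Leaving out single arrays gave 5 to 6 of the 7 genes with OTX015, 4 to 6 with DW71177, 2 to 2 with RVX208, 0 to 1 between DW71177 and OTX015, 5 to 6 between DW71374 and OTX015 and 5 to 5 between DW71374 and DW71177. For the 49 genes the ranges were 24 to 29, 18 to 21, 3 to 12, 1 to 3, 26 to 29 and 20 to 25. The cause of these shifts was not tested.

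Same-numbered arrays of different groups did not deviate together over genes (correlation -0.087 to 0.098 over 30 pairs). These correlations cannot show whether same-numbered wells shared a culture or a day, which the labels do not say. With the replicate number as a replicate block, 6 of the 7 genes were called with OTX015, 5 with DW71177, 2 with RVX208 and 0 between DW71177 and OTX015, where the PFAS difference was 0.36 (limma adjusted p = 0.066). ADSL was not called between DW71374 and OTX015 (0.055). With RVX208 the block also ended the DTYMK call and added APRT, and it ended the MYC call between DW71177 and OTX015. Quantile normalization, testing every feature and a fit of 6 arrays ended that MYC call too. No background level was given, so dim genes have no reliable fold.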
